A study of Mus musculus with 32 samples.

Results

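The 9 genes described here encode the parts of the Nodal signaling pathway: the ligands *Nodal* and *Gdf3*, the co-receptor *Tdgf1*, the receptor *Acvr2b*, the secreted antagonists *Lefty1* and *Lefty2*, the transcription factor *Foxh1*, and the intracellular inhibitors *Smad7* and *Skil*. They were chosen by name, as the rows of the table of expression values with these symbols, and make up 9 of its 54233 rows and 9 of the 15227 genes that were tested. Bulk RNA-seq was measured in 32 samples, 4 replicates at each of 8 time points. The cells were KH2 mouse ES (mES) cells, with C57BL/6 as the labelled strain. They carry 1 copy of a *Gata6*-FLAG transgene, linked to the red fluorescent reporter DsRed2, under a TET-responsive element. All groups carry this transgene, and no line without it was analysed here. The 0 h samples received no doxycycline (Dox) and were kept in medium with LIF and the 2 inhibitors PD0325901 (of MEK) and CHIR (of GSK3). For all later time points, cells were moved to serum medium with LIF and Dox at 1 µg/ml. The 2, 4 and 8 h samples were still in Dox, whereas the 16, 24, 48 and 96 h samples had received it for 12 h and were then cultured in serum medium without it. Dox and the change of medium therefore cannot be told apart in any comparison with 0 h, and the removal of Dox cannot be told apart from time after 8 h.

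Nodal is a ligand of the TGF-β family. With the co-receptor encoded by *Tdgf1* (Cripto), it binds activin receptors, which phosphorylate SMAD2 and SMAD3, and these enter the nucleus with SMAD4 and act on DNA with FOXH1. The pathway is known for feedback: *Nodal*, *Lefty1* and *Lefty2* are themselves targets of the signal, and Lefty proteins block Nodal outside the cell. In the early embryo *Nodal* is expressed in the epiblast (Epi), and visceral endoderm, which descends from primitive endoderm (PrE), makes secreted Nodal antagonists.

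Each sample had between 3190108 and 12301732 reads assigned to genes. Expression is given as normalized counts, meaning reads divided by the size factor of the sample that the authors used. The transgene row had no reads at 0 h and a mean of 618 normalized counts at 2 h. The summed level of 8 Epi markers was 29739 to 32000 at 0 h and 3403 to 4069 at 96 h, and that of 8 PrE markers was 628 to 898 at 0 h and 199306 to 275693 at 96 h. The labelled cell type at 0 h thus had its defining markers, and none of these 8 Epi markers averaged under 10 normalized counts there. The sum of 5 fibroblast markers, which would mark feeder cells, was at most 32.5 in any sample. That of 5 mesoderm markers was 225 to 362 at 96 h, but 4 of the 5 averaged under 10 normalized counts there. The remaining one, *Kdr*, had a mean of 275. The sum of 6 trophectoderm markers was 671 to 754 at 0 h and 237 to 699 at 96 h. At 0 h most of it came from *Tfap2c*, with a mean of 398, and *Eomes*, with 263, and the next highest was *Cdx2* with 26.2. Because these are bulk samples, fewer cells that express a gene and less RNA per cell cannot be told apart. The replicates fell into 2 sets, replicates 1 and 2 and replicates 3 and 4, that differed from each other within time points. What the sets stand for is not given in the sources used here, so values within each set are given beside results of the 9 genes that they move. The study describes its replicates as independent, but no label says that they were separate cultures, so p-values measure the spread between these samples, which may in part be technical.

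On GRCm38 (GENCODE M21), *Nodal* (ENSMUSG00000037171) lies on the plus strand at chr10:61417972-61425338. *Gdf3* (ENSMUSG00000030117) lies on the minus strand at chr6:122605403-122610087. *Tdgf1* (ENSMUSG00000032494) is at chr9:110939603-110946158 on the minus strand, and *Acvr2b* (ENSMUSG00000061393) is on the plus strand of the same chromosome at chr9:119402118-119434995. *Lefty2* (ENSMUSG00000066652, chr1:180893108-180899103) and *Lefty1* (ENSMUSG00000038793, chr1:180935022-180938400) are neighbours on the plus strand, with 35918 bases between them. *Foxh1* (ENSMUSG00000033837) lies at chr15:76668225-76669948 on the minus strand, and *Skil* (ENSMUSG00000027660) at chr3:31095058-31122577 on the plus strand. Of the 9 genes, 1 overlaps an annotated antisense gene (*Acvr2b*, with *Gm47320*). Whether reads were counted by strand is not stated, so reads of this pair cannot be told apart.

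Promoter sequences of 3 of the 9 genes (*Nodal*, *Tdgf1* and *Acvr2b*) were matched in RefSeq (GRCm38.p6). They are shown because no sequence was matched for the other genes, and none was picked by its profile. Over the time course *Nodal* and *Tdgf1* changed with like profiles, whereas *Acvr2b* stayed within a narrow range. Each is the 250 bases before the RefSeq start site, 5′ to 3′ on the strand of the gene. For *Acvr2b* the GENCODE gene given above starts earlier, at 119402118, so the end of its window lies inside that gene. Capitals mark matches on either strand to any of 4 motifs. These were a FOXH1-type motif (TGTNNATT), a palindromic SMAD motif (GTCTAGAC), a short SMAD element (CAGAC, which can also match inside other sites) and a motif of GATA factors (AGATAA). The matches found do not overlap each other.
*Nodal* promoter, chr10:61417722-61417971, plus strand: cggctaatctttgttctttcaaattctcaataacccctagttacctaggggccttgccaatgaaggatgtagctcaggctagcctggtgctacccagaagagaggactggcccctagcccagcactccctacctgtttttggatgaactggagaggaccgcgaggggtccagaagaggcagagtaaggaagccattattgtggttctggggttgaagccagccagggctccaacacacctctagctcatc
*Tdgf1* promoter, chr9:110946159-110946408, minus strand: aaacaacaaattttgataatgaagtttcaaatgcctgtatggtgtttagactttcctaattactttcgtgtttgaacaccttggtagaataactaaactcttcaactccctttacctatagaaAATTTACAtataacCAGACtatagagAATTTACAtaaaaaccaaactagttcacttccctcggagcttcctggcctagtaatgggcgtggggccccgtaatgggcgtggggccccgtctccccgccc
*Acvr2b* promoter, chr9:119401928-119402177, plus strand: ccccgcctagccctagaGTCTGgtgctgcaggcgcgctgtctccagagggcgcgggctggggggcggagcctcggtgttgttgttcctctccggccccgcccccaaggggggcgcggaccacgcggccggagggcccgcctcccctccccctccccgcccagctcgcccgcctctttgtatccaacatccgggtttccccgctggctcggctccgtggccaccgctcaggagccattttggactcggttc
The *Tdgf1* promoter held 2 matches to TGTNNATT, both read as AATTTACA on the strand of the gene, whose first bases are at -127 and -101, and between them 1 match to the short SMAD element, at -113. The *Acvr2b* promoter held 1 match to the short SMAD element, as GTCTG at -233, and the *Nodal* promoter held none of the 4 motifs in this window. Among 32851 promoters of the same length, 10.9% held the FOXH1-type motif and 0.167% the palindromic SMAD motif. The short SMAD element was in 42.2% of them and the GATA motif in 9.99%. The matches are a description of letters and no test of binding.

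The plot of the 9 genes by sample shows 4 kinds of profile: genes that were highest at 0 h and declined (*Nodal*, *Gdf3* and *Tdgf1*), genes highest at 2 h (*Smad7* and *Skil*), genes highest at 8 or 16 h (*Lefty1*, *Lefty2* and *Foxh1*), and 1 gene, *Acvr2b*, that stayed within 1.65-fold. In what follows, a difference is written as a rise or a fall where its adjusted p was below 0.1 (limma, Benjamini-Hochberg over 15227 genes), and a gene is called changed where the difference was also at least 4-fold on the scale of log2(normalized count + 1).

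**Figure D1:**
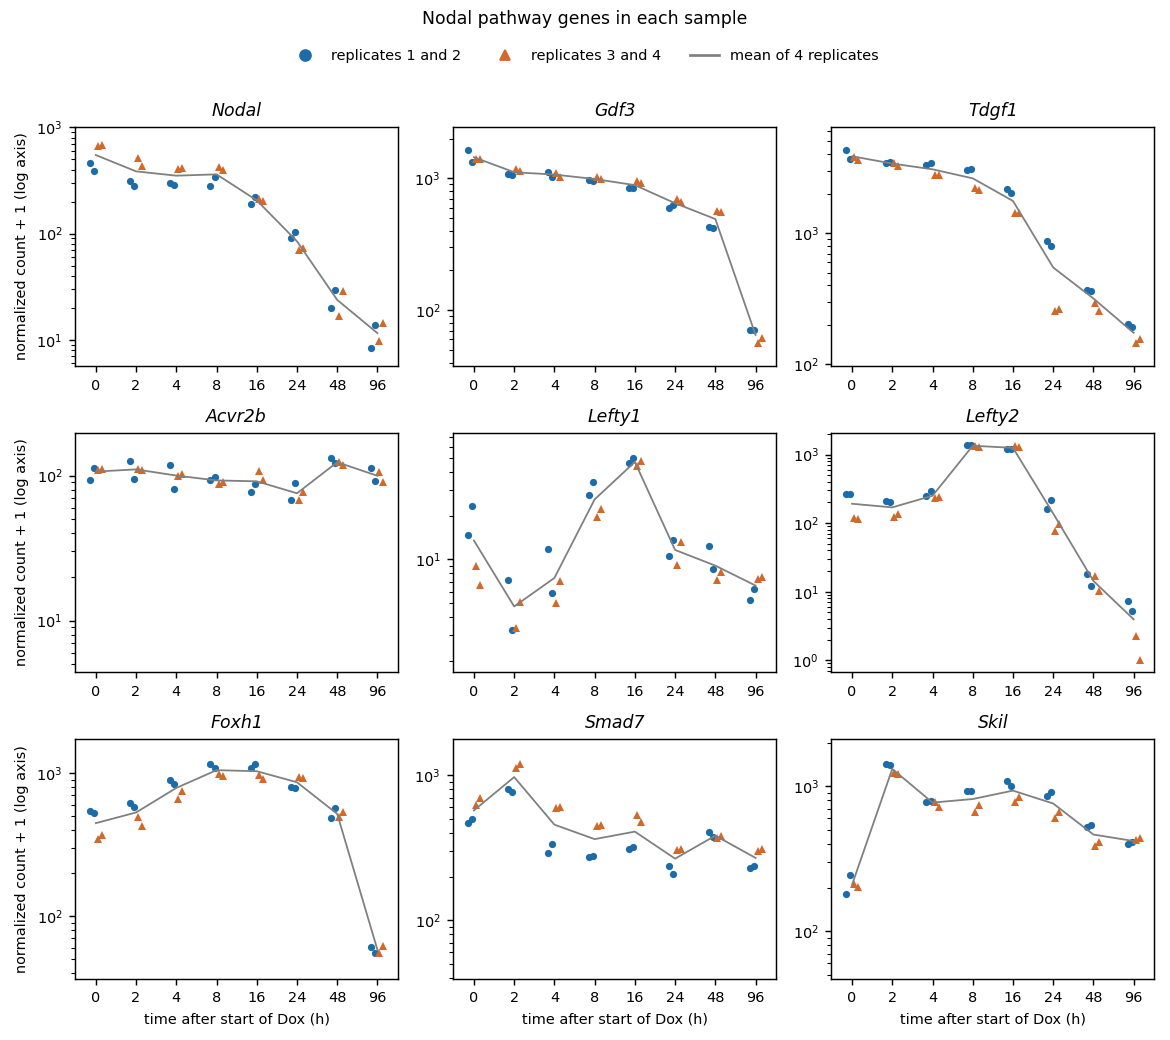
Normalized counts (plus 1, log axis) of the 9 genes in each of the 32 samples against time after the start of Dox. Blue circles are replicates 1 and 2, orange triangles are replicates 3 and 4, and the grey line joins the means of 4 replicates. *Nodal* and *Tdgf1* declined to 1.92% and 4.49% of their 0 h means by 96 h, *Lefty2* was near 1300 at 8 and 16 h, and *Acvr2b* moved little.

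Among the ligands, *Nodal* fell through the whole time course and *Gdf3*, another ligand of the TGF-β family that uses the same co-receptor, fell mostly after 48 h on the log2 scale. *Nodal* had 462, 386, 664 and 678 normalized counts in replicates 1 to 4 at 0 h. At 2 h the values were 312, 282, 515 and 429, and at 8 h they were 282, 341, 419 and 398. The samples of 0 h and 2 h overlapped when sets were mixed, but within each set every 2 h sample was lower than both 0 h samples. The log2 fold change at 2 h was -0.51 ± 0.22 (SE, n = 4 per time point in a limma fit of all 32 samples, adjusted p = 0.0607), and it was -0.51 in replicates 1 and 2 alone and -0.51 in replicates 3 and 4 alone. *Nodal* did not differ beyond its spread between 2, 4 and 8 h. From 16 h on, each time point was lower than the one before: the values were 188, 218, 208 and 204 at 16 h and 90.1, 103, 69.0 and 71.8 at 24 h. At 48 h they were 18.8, 28.3, 15.8 and 27.9, and at 96 h 7.43, 12.6, 8.79 and 13.2. The samples from 0 to 8 h were all above those at 16 h, which were above those at 24 h, and so on to 48 and 96 h, with no overlap. Against 0 h, the log2 fold change was -2.68 at 24 h, -4.53 at 48 h and -5.57 at 96 h (SE 0.22, adjusted p = 7.18e-12, 1.26e-17 and 4.74e-20 in limma), so that 1.92% of the 0 h mean remained at 96 h. At 24 h the value was -2.12 in replicates 1 and 2 alone and -3.23 in replicates 3 and 4 alone.

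*Gdf3* had 1649, 1342, 1395 and 1399.5 normalized counts at 0 h and 1086, 1062, 1177 and 1128 at 2 h, where no sample reached the 0 h range. This early fall was small, with a log2 fold change of -0.37 ± 0.09 (SE, adjusted p = 0.00109 in limma). The level did not differ beyond its spread between neighbours from 2 to 16 h and then fell at each step. At 48 h *Gdf3* still had 428, 420.2, 564 and 550.1 normalized counts, 33.9% of the 0 h mean. At 96 h the values were 70.0, 69.4, 55.2 and 60.5. The step from 48 to 96 h, -2.92 on the log2 scale (SE 0.09, adjusted p = 9.52e-21 in limma), was larger than the whole decline before it, which was -1.57 from 0 to 48 h. *Nodal* showed the other order: most of its decline, -4.53, had taken place by 48 h, and -1.04 followed.

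The co-receptor *Tdgf1* followed *Nodal*. It had 4333, 3656, 3819.7 and 3621 normalized counts at 0 h and 3029, 3088, 2211 and 2147 at 8 h. At 16 h the values were 2170.0, 2023, 1432 and 1417, and at 24 h they were 867, 799.8, 256 and 266. Replicates 3 and 4 were lower than replicates 1 and 2 at 8, 16 and 24 h, and at 24 h the means of the sets differed by 3.20-fold. The 48 h samples (366, 359.9, 291 and 253) lay below replicates 1 and 2 of 24 h and around replicates 3 and 4 of 24 h. At 96 h the values were 203, 190.4, 144 and 155, below all earlier samples. The log2 fold changes against 0 h were -0.18 at 2 h, -1.15 at 16 h and -3.04 at 24 h (SE 0.26, adjusted p = 0.622, 0.000443 and 2.18e-11 in limma). At 24 h the value was -2.26 in replicates 1 and 2 alone and -3.83 in replicates 3 and 4 alone. The change from 24 to 48 h had a different sign in each set, -1.20 in replicates 1 and 2 and 0.06 in replicates 3 and 4, so the fall of -0.57 over all replicates (adjusted p = 0.0649, limma) rested on replicates 1 and 2. *Tdgf1* shares sequence with its pseudogene *Tdgf1-ps1*: 236 of its 2665 windows of 50 bases (8.86%), the length of the reads, also occur there. The pseudogene row held on average 5.17% to 7.91% of the normalized count of *Tdgf1* by time point. How reads from the shared windows were assigned was not tested.

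The type II receptor *Acvr2b*, which binds activins as well as Nodal, was the member with the narrowest range. It had 92.5, 112, 109 and 109.5 normalized counts at 0 h. The 24 h samples had 67.3, 88.2, 67.0 and 75.8, and the 48 h samples had 131, 121, 123 and 117. The 24 h samples were all below the 0 h samples, and the 48 h samples were all above them. The lowest mean (24 h) and the highest (48 h) differed by 1.65-fold. *Acvr2b* fell at 24 h against 0 h, with a log2 fold change of -0.50 ± 0.12 (adjusted p = 0.000933 in limma), and rose by 0.72 from 24 to 48 h (adjusted p = 1.56e-05). When its 8 time points were put in order of level, no neighbours differed beyond their spread. At 96 h the log2 fold change against 0 h was -0.10 (adjusted p = 0.474).

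The antagonists *Lefty1* and *Lefty2* both rose from 4 to 8 h and both fell from 16 to 24 h. *Nodal* did not differ beyond its spread from 4 to 8 h, and it fell from 8 to 16 h and from 16 to 24 h. *Lefty2* had 264, 269, 117 and 113 normalized counts at 0 h. The 2 h samples had 212, 205, 122 and 136, and the 4 h samples had 245, 288, 231 and 236. The 0 h samples overlapped both later groups, and these 3 time points did not differ beyond their spread. At 8 h the values were 1388, 1383, 1324 and 1276, and at 16 h they were 1219, 1197, 1316 and 1269.5. All 8 of these samples were more than 4 times as high as every sample before them. The rise from 4 to 8 h was 2.43 ± 0.39 on the log2 scale (SE, adjusted p = 5.54e-05 in limma), and it was 2.38 and 2.47 within the sets. Between 4 and 8 h neither Dox nor the medium was changed. At 24 h the values were 162, 216, 75.1 and 94.6, a fall of -3.30 from 16 h on the log2 scale (adjusted p = 3.38e-07, limma). They continued to 17.0, 11.3, 15.8 and 9.29 at 48 h and 6.37, 4.21, 1.26 and 0 at 96 h, the last from 0 to 6 reads per library, so the lowest level is measured with few reads. The fall from 48 to 96 h, -2.20, was under 4-fold with a pseudocount of 5 (-1.26), without replicate 3 (-1.96), without replicate 4 (-1.81) and in replicates 1 and 2 alone (-1.26). *Lefty2* had the widest range of the 9 genes, from its highest mean of 1343 at 8 h to its lowest of 2.96 at 96 h, and no fold is given because the lowest mean rests on so few reads.

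At 0 h the sets of *Lefty2* differed by 2.31-fold, with replicates 1 and 2 higher, and this moved the fold changes against 0 h. At 8 h the log2 fold change was 2.93 ± 0.39 over all replicates (adjusted p = 4.1e-07 in limma), 2.38 in replicates 1 and 2, and 3.49 in replicates 3 and 4. At 16 h it was 2.83 over all (adjusted p = 5.98e-07). The values of the sets differed at 0 h and 24 h but were within 1.07-fold at both 8 and 16 h.

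*Lefty1* was the least abundant member at 0 h, with 13.8, 22.4, 8.06 and 5.67 normalized counts. At 2 h it had 6.23, 2.26, 2.34 and 4.10, from 2 to 6 reads per library. It rose to 26.7, 33.0, 18.7 and 21.3 at 8 h and 45.2, 48.9, 43.3 and 46.6 at 16 h, and returned to 9.61, 12.5, 8.12 and 12.2 at 24 h. The 8 h samples overlapped 1 sample of 0 h, and the 16 h samples were above all other samples of the time course. The log2 fold change against 0 h was -1.42 at 2 h, 1.08 at 8 h and 1.96 at 16 h (SE 0.32, adjusted p = 0.000776, 0.0079 and 9.37e-06 in limma), the last just under the 4-fold threshold. The sets of *Lefty1* differed by 2.64-fold at 0 h, with replicates 1 and 2 higher. At 16 h the log2 fold change was 1.37 in replicates 1 and 2 and 2.56, past 4-fold, in replicates 3 and 4. At 8 h these values were 0.72 and 1.43, and at 2 h -1.94 and -0.91. The rise from 4 to 8 h was 1.85 (adjusted p = 0.000169) and the fall from 16 to 24 h was -2.03 (adjusted p = 2.75e-05), which is close to the 4-fold threshold and was -1.72 with a pseudocount of 5 and -1.95 without replicate 3. *Lefty1* continued to rise from 8 to 16 h (0.89, adjusted p = 0.0628), whereas *Lefty2* changed by -0.10 (adjusted p = 0.907). The difference between these changes was not tested. Of the 1707 windows of 50 bases in *Lefty1*, 306 (17.9%) also occur in *Lefty2*. Reads from these windows could be assigned to either gene or to none, which touches *Lefty1* more, as the rarer of the pair.

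The plot of ratios shows how the antagonists stood to each other and to their ligand in each sample. Before a ratio was taken, 1 was added to its numerator and to its denominator, so only once to the sum of *Lefty1* and *Lefty2*. The ratios were not tested. The log2 ratio of *Lefty2* to *Lefty1* was 3.87 ± 0.307 (SD, n = 4) before induction. It was already 5.20 ± 0.550 at 2 h and 5.15 ± 0.573 at 4 h, when *Lefty1* had at most 11 reads per library. By 8 h it was 5.73 ± 0.308 and by 16 h 4.74 ± 0.126, and all samples from 2 to 16 h were above those of 0 h. It was 0.66 ± 0.397 at 48 h, so that *Lefty2* then had 1.58 normalized counts for each one of *Lefty1*. This value rests on few reads, 6 to 18 per library for *Lefty2* and 4 to 12 for *Lefty1*. The log2 ratio of *Lefty1* plus *Lefty2* to *Nodal* was -1.51 ± 1.10 at 0 h, where replicates 1 and 2 had -0.73 and -0.40 and replicates 3 and 4 had -2.40 and -2.50. At 8 h the samples had 2.32, 2.05, 1.68 and 1.70, and at 16 h all 4 lay between 2.51 and 2.74. Antagonist transcripts were thus fewer than *Nodal* transcripts in every 0 h sample, and at 16 h they outnumbered them by a mean of 6.32 to 1 in normalized counts plus 1, not adjusted for length. At 24 h the mean was 0.72 ± 0.385, above all 0 h samples, and at 48 and 96 h the samples overlapped those of 0 h. The change from 0 to 16 h was 3.20 in replicates 1 and 2 and 5.14 in replicates 3 and 4.

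**Figure D2:**
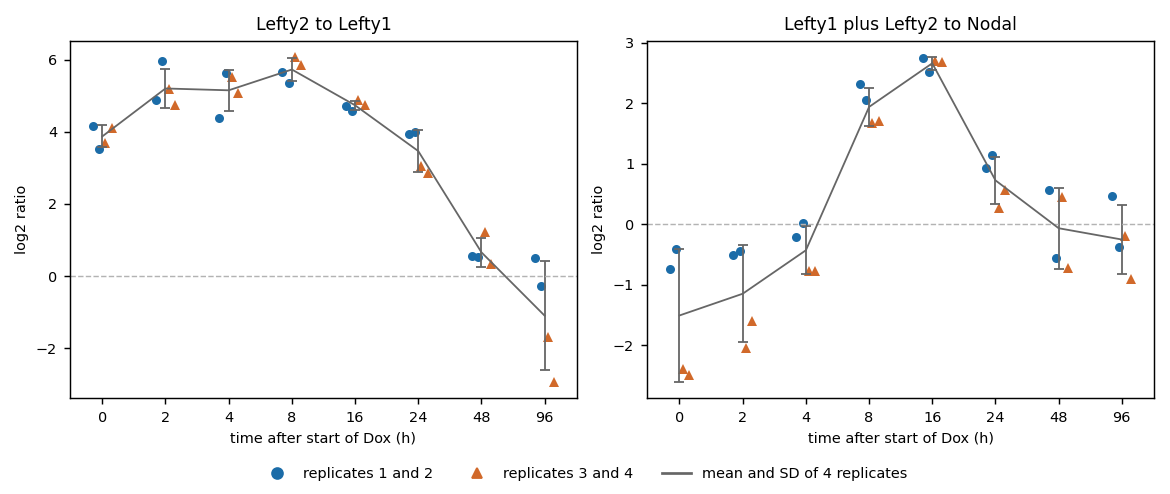
Log2 ratio of *Lefty2* to *Lefty1* (left) and of *Lefty1* plus *Lefty2* to *Nodal* (right) in each sample against time after the start of Dox. The ratios are of normalized counts, with 1 added to numerator and denominator. Blue circles are replicates 1 and 2, orange triangles replicates 3 and 4, and the line with bars gives the mean and SD of 4 replicates. The right panel rises from -1.51 at 0 h to 2.66 at 16 h, where the 4 samples lie close together.

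The transcription factor *Foxh1*, the DNA-binding partner of SMAD2 and SMAD3, rose until 8 h, stayed at that level to 16 h and then fell. It had 541, 529, 347 and 368 normalized counts at 0 h and 894, 846, 665 and 751 at 4 h. At 8 h the values were 1164, 1096, 992 and 953, and at 24 h they were 799.9, 792, 946 and 921. All samples from 4 to 24 h were above all samples of 0 h. At 48 h the values were 482, 567, 492 and 533, which overlapped 0 h, and at 96 h they were 59.4, 53.6, 54.0 and 60.5, below every earlier sample. The log2 fold change against 0 h was 0.26 at 2 h (adjusted p = 0.104 in limma), 0.84 at 4 h (adjusted p = 3.51e-06) and 1.26 ± 0.13 at 8 h (adjusted p = 2.1e-09). The step from 48 to 96 h was -3.16 (adjusted p = 1.65e-17, limma). The late fall of *Foxh1* thus came in the same interval as that of *Gdf3*. At 24 h the log2 fold change was 0.98 (adjusted p = 1.24e-07, limma), with 0.57 in replicates 1 and 2 and 1.38 in replicates 3 and 4. *Foxh1* at 24 h was still 194% of its 0 h mean, when *Nodal* and *Tdgf1* were at 15.3% and 14.2%.

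The intracellular inhibitors *Smad7*, which blocks type I receptors, and *Skil* (SnoN), which represses SMAD complexes, were highest at 2 h. *Skil* had 181, 243, 209.6 and 200.2 normalized counts at 0 h and 1415, 1411, 1232 and 1206 at 2 h. Every 2 h sample was more than 4 times as high as every 0 h sample. It was the only one of the 9 genes called changed at 2 h, with a log2 fold change of 2.66 ± 0.13 (SE, adjusted p = 2.13e-16 in limma), against 2.00% of all genes tested called higher at that time. At 4 h *Skil* had 780.0, 795, 783 and 722, a fall of -0.77 from 2 h (adjusted p = 6.65e-05), and at 16 h 1091, 1004, 783 and 848. From 4 to 24 h, time points next to each other in order of level did not differ beyond their spread. The 24 h level was nevertheless below that of 16 h (log2 fold change -0.30, adjusted p = 0.0931 in limma). At 96 h the values were 397, 412, 427 and 436, all above the 0 h samples and 201% of their mean. *Skil* was the only one of the 9 genes higher than at 0 h at all 7 later time points at an adjusted p below 0.1.

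*Smad7* (ENSMUSG00000025880) lies on the plus strand at chr18:75367529-75395935. It had 467, 495, 621 and 699 normalized counts at 0 h and 805, 769, 1116 and 1187 at 2 h, and all 2 h samples were above all 0 h samples. At 4 h the values were 288, 337, 595 and 599. The rise at 2 h was 0.76 ± 0.22 on the log2 scale (adjusted p = 0.00705 in limma) and was under 4-fold, with 0.71 and 0.80 within the sets. The fall from 2 to 4 h was -1.14 (adjusted p = 0.000383). Replicates 3 and 4 had more *Smad7* than replicates 1 and 2 at every time point but 48 h, by up to 1.91-fold at 4 h. At 24 h the values were 237, 208, 305 and 309 and at 96 h 228, 236, 297 and 310.1, with log2 fold changes of -1.11 and -1.08 against 0 h (adjusted p = 8.97e-05 and 6.75e-05, limma). *Skil* and *Smad7* therefore both rose at 2 h, and from 8 h on they stood on opposite sides of their 0 h levels.

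Across the comparisons with 0 h, few of the 9 genes were called changed up to 16 h, and they were then called in the direction of a rise. From 24 h on they were called as falls. At 2 h 1 of 9 was called higher (*Skil*), against 2.00% of all genes tested, and at 4 h none was called, against 3.40% of all genes, although 5 of 9 passed an adjusted p of 0.1 in limma at any fold, against 48.5% of all genes. The same 5 had an unadjusted p below 0.05, and limma-voom called none at 4-fold. At 8 h 1 of 9 was called higher (*Lefty2*), against 3.40%. At 16 h 2 of 9 were called higher (*Lefty2* and *Skil*), against 4.03%. *Skil* was then 2.15 on the log2 scale over all replicates, but 1.99, under 4-fold, in replicates 3 and 4 alone. At 24 h 2 of 9 were called lower (*Nodal* and *Tdgf1*), against 4.34%. At 48 h 3 of 9 were called lower (*Nodal*, *Tdgf1* and *Lefty2*), against 7.09%. At 96 h 5 of 9 were called lower (these 3 with *Gdf3* and *Foxh1*), against 10.3%, and the median log2 fold change of the 9 genes was -2.92, beside -0.03 over all genes tested. The 7 comparisons share the 0 h samples.

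**Figure D3:**
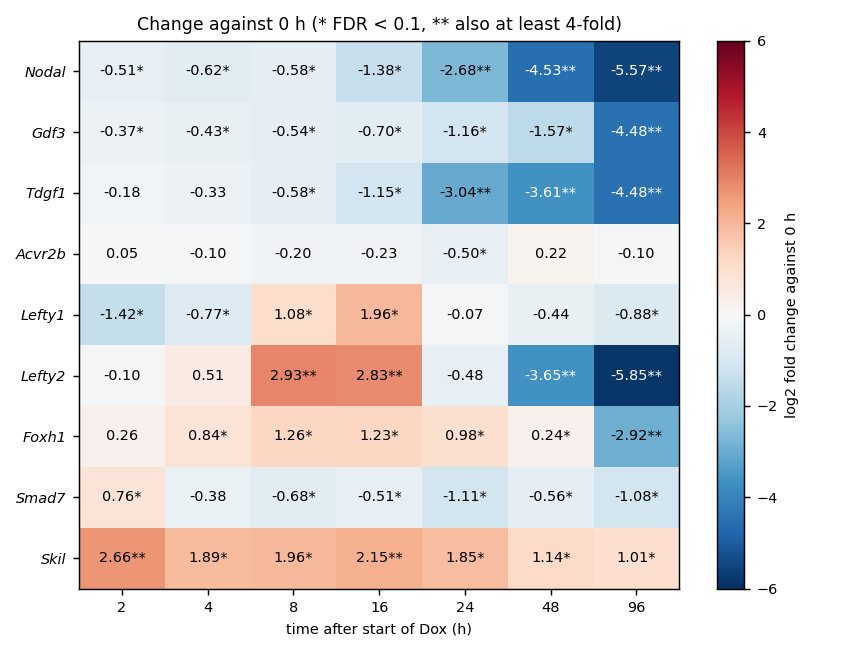
Log2 fold change against 0 h of each of the 9 genes (rows, by role) at 7 later time points (columns), from limma on log2(normalized count + 1). Red is higher and blue lower than at 0 h, 1 asterisk marks an adjusted p below 0.1 and 2 asterisks also a change of at least 4-fold. *Lefty2* at 8 h (2.93) and 16 h (2.83) are the largest rises, followed by *Skil* at 2 h (2.66), and *Lefty2* (-5.85) and *Nodal* (-5.57) at 96 h the largest falls.

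Against the preceding time point, *Skil* was called from 0 to 2 h, as given above, and the later calls fell on 4 intervals. From 4 to 8 h 1 of 9 was called higher (*Lefty2*), against 0.565% of all genes tested. From 16 to 24 h 2 of 9 were called lower (*Lefty1* and *Lefty2*), against 0.729%, and 7 of 9 were lower at an adjusted p below 0.1 in limma, against 14.8% of all genes. From 24 to 48 h 1 of 9 was called lower (*Lefty2*), against 1.41%. From 48 to 96 h 3 of 9 were called lower (*Foxh1*, *Gdf3* and *Lefty2*), against 2.40%. From 2 to 4 h and from 8 to 16 h none of the 9 was called at 4-fold in limma, against 0.788% and 1.04% of all genes, nor was any by limma-voom. From 2 to 4 h 3 of 9 passed an adjusted p of 0.1 at any fold, against 24.4% of all genes, and 3 of 9 had an unadjusted p below 0.05 in each of these 2 intervals. Over the same time course the sum of the Epi markers declined and that of the PrE markers rose, from 8091 to 8464 at 8 h to 33571 to 63324 at 24 h for the latter, and the part of this shift in the changes of the 9 genes was not tested.

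A list of 48 genes of the Nodal, activin and TGF-β pathways, which holds the 9, was read in the same way. Of its other genes 31 were tested, and 8 were not because of low counts: *Gdf1*, *Inhba*, *Acvr1c*, *Cer1*, *Fstl3*, *Inha*, *Mixl1* and *Gsc*. At 2 h 1 of these 31 was called higher and none lower, against 2.00% and 0.348% of all genes tested. It was *Tgfb1*, the TGF-β1 ligand, which went from 45.5, 42.8, 20.2 and 13.2 normalized counts at 0 h to 134, 143, 103 and 107 at 2 h, with no overlap (log2 fold change 2.12, adjusted p = 6.89e-08 in limma). It was not called without replicate 4 or with a pseudocount of 5, when 1 listed gene, *Skil*, was called higher at 2 h. With no fold threshold, 14 of the 31 rose and 7 fell by 2 h (adjusted p below 0.1 in limma). Of the 10 genes listed as intracellular inhibitors, 7 were higher and none lower at this threshold, against 22.2% and 22.6% of all genes tested. The 10 include *Skil* and *Smad7*. By 24 h 3 of the 10 were higher and 4 lower than at 0 h, beside 4744 and 4670 of the 15227 genes tested.

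At 48 h 3 of the 31 were called higher and 1 lower, against 8.48% and 7.09% of all genes. At 96 h 6 were called higher and 3 lower, against 9.28% and 10.3%. The genes called higher both times were a ligand, *Tgfb3*, and the co-receptors *Cfc1* and *Tgfbr3*. *Cfc1* (Cryptic), which belongs to the same co-receptor family as *Tdgf1*, had no read in any 0 h library and 94.2, 84.8, 160.1 and 147 normalized counts at 48 h. Set against 3 reads per library at 0 h, this is at least 34.1-fold higher, and at 96 h *Cfc1* was at least 14.6-fold higher. *Cfc1* overlaps *Prss40* on the other strand, and the strand setting of the counting is not stated. *Cfc1* was thus present when *Tdgf1* was low. Per kilobase of exon, the mean at 48 h was 117 normalized counts for *Cfc1* and 121 for *Tdgf1*, against 0 and 1471 at 0 h.

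Among the receptors, *Tgfbr3* (betaglycan, a TGF-β co-receptor) rose from 41.4, 28.5, 61.3 and 88.8 normalized counts at 0 h to 712, 684, 859.8 and 782 at 96 h, or by 3.88 on the log2 scale (adjusted p = 2.52e-12 in limma), and it was called at 48 h as well (3.03). *Tgfbr2*, the type II TGF-β receptor, was called higher at 96 h only among these 3 time points (2.13, adjusted p = 1.17e-06). *Tgfb3*, with at most 3 reads in any 0 h library, was at least 5.13-fold higher at 48 h and at least 5.01-fold higher at 96 h. It overlaps *Ttll5* on the other strand. The signal transducer *Smad2* was called higher at 96 h, from 444 ± 34.9 to 1933 ± 53.8 normalized counts (SD, n = 4; log2 fold change 2.12, adjusted p = 1.34e-17 in limma). *Pmepa1*, an inhibitor that is itself a TGF-β target, was also called (2.12, adjusted p = 7.62e-11).

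The genes called lower were *Inhbb* at 48 and 96 h, and *Pcsk6* and *Tgif1* at 96 h. *Inhbb*, which encodes the activin B subunit, had 82.8, 111, 149 and 149 normalized counts at 0 h and between 1.26 and 6.37 at 96 h (log2 fold change -5.01, adjusted p = 6.68e-14 in limma). *Pcsk6*, a convertase that cleaves the Nodal precursor, had 542, 647, 1186 and 1233 at 0 h and 167, 144, 154 and 139 at 96 h (-2.48, adjusted p = 7.71e-10). At 0 h the sets of *Pcsk6* differed by 2.03-fold, with replicates 1 and 2 lower, so the size of this fall depends on the set. Whether each set alone passed 4-fold is not given here. The other convertase in the list, *Furin*, was higher instead. Its mean was 172 ± 61.2 normalized counts before induction and 852 ± 81.1 by 24 h (SD, n = 4 each). The change was past 4-fold for 16 and 24 h (log2 2.13 and 2.37) and was 1.65 at 96 h (adjusted p = 5.02e-07, 4.63e-08 and 9.45e-06 in limma). *Tgif1*, a repressor of SMAD-driven transcription, had a log2 fold change of -2.26 at 96 h (adjusted p = 3.43e-15). The median log2 fold change of the 31 genes at 96 h was 0.38, beside -2.92 for the 9 and -0.03 over all genes tested. The secreted antagonist *Cer1*, which was not tested, had no read at 0 h or 96 h and means of 8.52, 10.5 and 6.58 normalized counts at 4, 8 and 16 h, at least 2.39-fold, 2.94-fold and 1.85-fold above 3 reads per library at 0 h. It was thus measured at a low level at 4 h, before the rise of *Lefty1* and *Lefty2*, and still at 8 and 16 h.

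**Figure D4:**
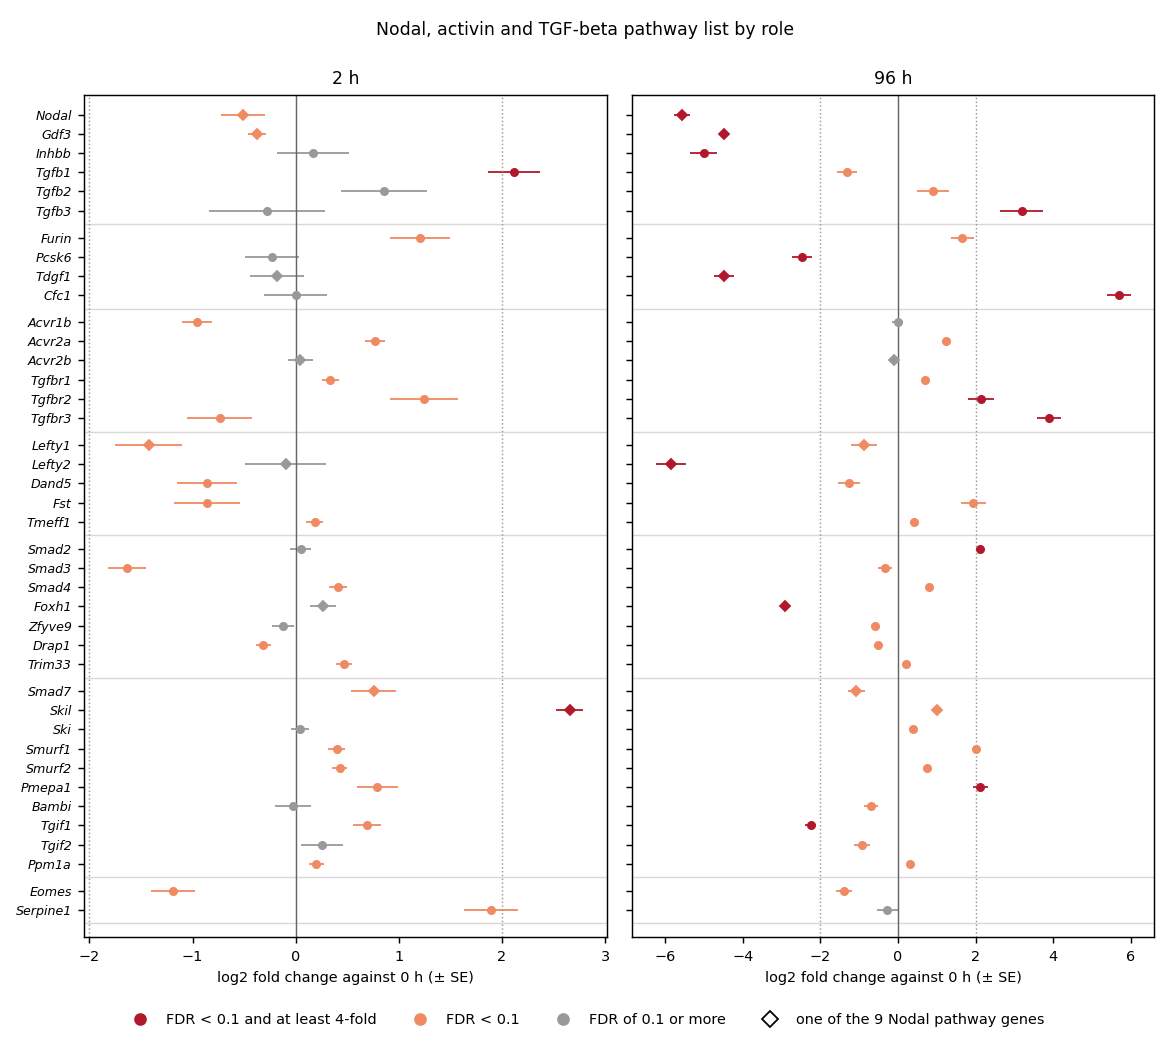
Log2 fold change against 0 h (± SE, limma) at 2 h (left) and 96 h (right) of the 40 tested genes of the pathway list, grouped by role from ligands at the top to targets at the bottom. Diamonds are the 9 Nodal pathway genes, colours give the test, and dotted lines mark 4-fold. *Skil* and *Tgfb1* pass the 4-fold threshold at 2 h, and the values of *Cfc1* and *Tgfb3* at 96 h are fitted against libraries with at most 3 reads and are no bounds.

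Levels of different genes were compared per kilobase of exon. At 0 h *Tdgf1* was the highest of the 9, with a mean of 1471 normalized counts per kilobase, followed by *Gdf3* with 597 and *Foxh1* with 327. *Nodal* had 261, *Lefty2* 73.0 and *Lefty1* 7.10, the lowest. At 8 h *Lefty2*, with 514 per kilobase, stood above *Gdf3* (408) and *Nodal* (172). At 24 h *Foxh1* was the highest with 634 per kilobase. At 96 h all 9 genes were at or below 66.0 per kilobase, the level of *Tdgf1*, and *Lefty2* was the lowest with 1.13.

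Over the 32 samples, *Nodal* and *Tdgf1* had the most similar profiles of all pairs among the 9 genes (Pearson's r = 0.953 on log2(normalized count + 1)), and *Lefty1* and *Lefty2* had r = 0.608. *Acvr2b* had r between -0.280 and 0.405 with the other 8 genes. These values describe samples that share time points and are given without a test. Profiles were compared with 9964 genes that had a symbol and a highest time point mean of at least 100 normalized counts. Members among these were left out of the ranking. The profiles closest to *Nodal* were those of *B4galnt4* (r = 0.984), *Bid* (0.983) and *H2-M5* (0.982). *H2-M5*, for example, had a mean of 1197 normalized counts at 0 h and 23.6 at 96 h. Closest to *Tdgf1* were *1700019D03Rik* (0.983), *Sept1* (0.981) and *Pipox* (0.978). Closest to *Lefty2* were *Nde1* (0.958), *Scrn1* (0.952) and *Nt5e* (0.942), of which *Nt5e* went from a mean of 174 at 0 h to 1049 at 16 h and 16.0 at 96 h. For *Lefty1* the closest were *Eif5a2* (0.826), *Limk1* (0.816) and *Slc29a1* (0.801), lower values than for the other genes. For *Skil* they were *Aff4* (0.910), *Phlda1* (0.905) and *Vgll3* (0.901), and *Phlda1* rose from a mean of 20.6 at 0 h to 1019 at 2 h.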

How the data were processed

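RNA-seq of 32 samples was analysed. Per the paper's methods, libraries were made from polyadenylated RNA with a stranded kit, and the authors used cutadapt (2.7 in the submitters' processing notes) for trimming, HISAT2 (2.1.0) for alignment to GRCm38.p6, and featureCounts of Subread (1.6.4) with the GENCODE m18 annotation for counting. The authors deposited log2 values after the size factors and variance stabilizing transformation of DESeq2. The lowest value, 1.58, stands for no reads and fixes the transformation. Inverting it gave normalized counts, and whole reads for 100% of values (largest distance from a whole number 3.5e-09). As the deposited unit is log2, no count test was the main one, and limma-voom on the whole reads was an alternative. Reads on genes were 3190108 to 12301732 per sample (median 8870662.5). PCR copies were not marked, so a limit of 3 reads per library covers counting error only.

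The filter on low values kept genes that reached 10 normalized counts in 4 or more samples (15227, all 9 members included). Their log2(normalized count + 1) entered limma 3.58.1 (R 4.3.3; eBayes with trend, all 32 samples, time point as the only term). The pseudocount of 1 understates changes of low genes. The threshold was FDR < 0.1 (Benjamini-Hochberg per comparison, two-sided) and 4-fold, as in the study's methods. On simulated data for 8-fold changes at 2 h against 0 h (14607 genes), 200 of 200 changed genes were recovered with 1 false call. The changed genes were not low in level, and the 2 replicate sets were not simulated. Genes at a low level and calls near 4-fold were therefore not checked. Values and ratios were computed with Python 3.11.15, pandas 2.3.3 and numpy 2.4.6.

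The members and gene lists were chosen with earlier results of these data known. Genes named are the members, listed pathway genes past the threshold at 2, 48 or 96 h or in a count of 5 or fewer, and the 3 closest profiles for each of 5 members. Of the pathway list, 1 gene is not reported here. *Cer1* and *Furin* were named after their values were seen. Groups and replicate numbers come from the sample titles. Coordinates are from GENCODE M21, whereas counting used m18. Alternatives covered pseudocount, filter, scaling, test, block, thresholds, samples in the fit and each replicate left out. Those with 1 replicate set alone were chosen after seeing the data.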

Additional observations from a re-analysis of the deposited data

Results flagged for a closer look

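*Acvr2b* at 0 h was flagged because replicate 1, with 92.5 normalized counts, lay apart from the other 3 samples, which had 112.1, 108.8 and 109.5. Its gap to the nearest sample was 0.832401 of the range of the group. Of 88 groups of 4 samples examined in this way this was 1, and chance alone flags about 1 in 20 groups. Leaving out any 1 replicate gave log2 fold changes of *Acvr2b* at 24 h against 0 h between -0.56 and -0.44.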

How the results depend on the processing

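Of the 9 members, 2 were called higher and 5 lower at least once against 0 h, and 2 higher and 4 lower at least once against the preceding time point, 0 to 2 h included. Of the 40 tested genes of the pathway list, 10 were called higher and 8 lower at least once against 0 h. Without a fold threshold these counts were 5 and 8, 6 and 9, and 29 and 28. The share of all genes tested that was called at least once was not computed, so these counts serve only to compare settings. Under the other alternatives, each count was within 1.5 times its value. Of 2210 recomputed fold changes of members, 2112 kept direction and side of the threshold. For 18 the direction turned, all of them changes that were small or differed between the replicate sets, and the cause was not tested. With limma-voom on the whole reads, *Nodal* from 4 to 8 h was -0.0001 and *Acvr2b* from 8 to 16 h 0.0002. Leaving out 1 replicate gave -0.0210 to 0.0851 for *Nodal* from 4 to 8 h, -0.0850 to 0.1471 for *Acvr2b* at 2 h, -0.2444 to 0.0270 at 4 h, and -0.1342 to 0.0525 from 8 to 16 h. It gave -0.4212 to 0.1728 for *Lefty1* at 24 h and -0.2154 to 0.0036 for *Lefty2* at 2 h. In replicates 3 and 4 alone, the values were 0.0569 for *Tdgf1* from 24 to 48 h, 0.1642 for *Acvr2b* from 8 to 16 h, 0.4995 for *Lefty1* at 24 h, 0.1621 for *Lefty2* at 2 h, and -0.1020 and 0.1199 for *Skil* from 4 to 8 h and from 48 to 96 h. In replicates 1 and 2 alone, they were -0.0024 for *Lefty2* at 4 h and -0.0327 for *Foxh1* at 48 h.

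Calls near 4-fold moved. The fall of *Lefty1* from 16 to 24 h was -1.72 with a pseudocount of 5, -1.99 with limma-voom, -1.70 on the deposited values and -1.95 without replicate 3. The fall of *Lefty2* from 48 to 96 h was -1.26 with a pseudocount of 5, -1.51 on the deposited values, -1.96 without replicate 3 and -1.81 without replicate 4. The rise of *Lefty1* at 16 h passed 4-fold without replicate 1 (2.07), without replicate 2 (2.26) and with a pseudocount of 0.5 (2.02), and its rise from 4 to 8 h did so without replicate 1 (2.06). *Skil* at 8 h passed it without replicate 3 (2.05), and at 16 h *Skil* was 1.99 in replicates 3 and 4 alone. *Nodal* from 24 to 48 h passed it without replicate 4 (-2.03), and *Tdgf1* from 16 to 24 h without replicate 1 (-2.08) or 2 (-2.07). Of 84 recomputed ratios, 6 moved by more than the spread between replicates and 0 turned direction.

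As a check of pairing, deviations from the time point means were correlated between samples. The mean r was 0.196 over 112 pairs of equal number (-0.043 to 0.480) and also 0.196 between numbers 1 and 2 or 3 and 4, and 15 of 32 samples correlated best with their own number, so the numbers are not treated as pairs. In a fit with a replicate block, the called member comparisons were 21 of 117, as without it, and the counts above were 2, 5, 2, 4, 10 and 8. At an adjusted p below 0.1 alone in limma they went from 78 to 83. Depth limits *Lefty1* at 2, 4, 48 and 96 h, where libraries held at most 12 reads, and at 0 h, where the lowest library held 3. It also limits *Lefty2* at 48 h, with 6 to 18 reads per library, and at 96 h, with at most 6.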
